A study of Mus musculus with 400 samples.

Results

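The sodium pump beta subunit genes Atp1b1, Atp1b2 and Atp1b3 and the pump regulator genes Fxyd2, Fxyd6 and Fxyd7 were described in single neurons of mouse dorsal root ganglia (DRG), the clusters of sensory neuron cell bodies beside the spinal cord. These 6 genes, of 24754 gene entries in the tables, were chosen by their levels in these same cells, with earlier results over the cell groups below known. Their levels between those groups are therefore given as a description, with no test. Tests were kept for other genes of these families and of ion transport, and for a split of the cells by glial RNA, which the choice of the 6 genes did not use.

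The sodium pump (Na,K-ATPase) moves sodium out of the cell and potassium in at the cost of ATP, and so rebuilds the gradients that action potentials run down. A catalytic alpha subunit needs a beta subunit to fold and to reach the membrane, and a small FXYD protein can join the pair and tune its affinity for ions. In sensory neurons, spike bursts load the cell with sodium, and the pump current that follows damps further firing.

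The cells carried the red reporter tdTomato and were sorted singly from cervical (C1-C8) DRG of 6 naive mice, 6 to 12 weeks old, whose genotype is given as Nav1.8-Cre R26CAG-floxStop-tdTomato and whose strain as Nav1.8-Cre.Ai14. The mice are called Blue and Red (run 1), Control (run 2), Control1 and Control2 (run 3) and Control6 (run 4), and all were of 1 condition, so that Control is only a name. The Cre follows the gene of the sodium channel Nav1.8 (Scn10a), so DRG cells that never switched this gene on were not sampled. The tables held 394 of the 400 labelled cells (the other 6 cells were not analysed here), and 371 with at least 500 detected genes were kept.

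Values are CPM, the usual scaling of a gene's signal by the total signal of its cell. Cells were grouped by gates on marker genes: 343 cells met at least 1 gate, and 14 of these met 2. The Mrgprd gate (at least 200 CPM, with 32 cells of Blue, 35 of Red, 18 of Control, 8 of Control1, 9 of Control2 and 11 of Control6) takes the non-peptidergic nociceptors with this receptor. The Mrgpra3 gate (at least 50 CPM, 47 cells) and the Sst/Nppb gate (at least 100 CPM of either gene, 46 cells) take itch-related neurons. The Th gate (at least 100 CPM, 39 cells) takes neurons with tyrosine hydroxylase, the class of C fibres with low mechanical thresholds. The Calca+Tac1 gate (at least 2000 CPM of Calca and 1000 CPM of Tac1, 86 cells) takes peptidergic nociceptors, and the Nefh gate (at least 500 CPM, 26 cells) takes cells rich in heavy neurofilament, a mark of myelinated neurons.

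Each mouse was 1 replicate and entered a gate with at least 3 cells. All 6 mice entered the Mrgprd and Calca+Tac1 gates, 5 entered the Sst/Nppb gate (all but Control6), 3 the Mrgpra3 gate (Blue, Red and Control2), 3 the Nefh gate (Control, Control2 and Control6) and 2 the Th gate (Blue and Red). The Th gate thus rests on run 1 and the Nefh gate on runs 2 to 4, so that run and gate cannot be told apart between these gates. Differences were taken within a mouse, as the gate minus the other gated cells of that mouse, which met another gate and not this one. The contrasts therefore share cells with each other.

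Kept cells held a median of 30366 counts (range 918 to 324984), with medians per gate from 16934 (Sst/Nppb) to 67460 (Nefh). Single marker genes that did not define the gates are given for Mrgprd, Th, Calca+Tac1 and Nefh, and not for Mrgpra3 and Sst/Nppb. Each had its highest mean over cells in its gate. Grik1 had 1360 CPM in Mrgprd (next 454 CPM in Th), and P2ry1 523 CPM in Th (next 43.3 CPM in Nefh). Adcyap1 had 1493 CPM in Calca+Tac1 (next 203 CPM in Nefh), and Nefm 1852 CPM in Nefh (next 743 CPM in Mrgprd). Scn10a averaged between 261 CPM in the Th gate and 988 CPM in the Mrgprd gate. RNA of glial genes was present in all gates and most abundant in the Nefh gate. The summed level of 12 satellite glial and Schwann cell genes had a median of 25.98 CPM in the Mrgprd gate, 21.6 CPM in Mrgpra3, 34.9 CPM in Sst/Nppb, 426 CPM in Th, 157 CPM in Calca+Tac1 and 3259 CPM in Nefh. Cells with a sum of at least 500 CPM are called glia-rich below, and they made up 22 of 26 Nefh cells (84.6%) and between 13.04% (Sst/Nppb) and 48.7% (Th) of the cells of the other gates. The 5 macrophage genes averaged a summed 1.07 to 6.22 CPM over gates, and all 4 endothelial genes were at 0 in the Mrgpra3, Sst/Nppb, Th and Calca+Tac1 gates. The 4 mural genes (Rgs5, Acta2, Pdgfrb and Myh11) averaged a summed 614 CPM in the Th gate, with Myh11 at 0, 399 CPM in Mrgpra3, 37.1 CPM in Mrgprd, 16.02 CPM in Nefh and 5.78 CPM in Calca+Tac1, and all 4 were at 0 in Sst/Nppb. The 4 fibroblast genes averaged 13.6 to 74.97 CPM, the 4 erythroid genes 1.09 to 64.5 CPM and the 3 lymphocyte genes 0 to 4.36 CPM. The part of these cell types in the levels below was not tested.

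Promoter sequences are shown for the 3 members with an entry in the set of RefSeq promoters used here (GRCm38.p6). Of these, Atp1b1 and Atp1b3 ordered the gates differently. Fxyd6 was near 0 in the Mrgprd, Mrgpra3 and Sst/Nppb gates, where its neighbour Fxyd2 was abundant, while both had their highest mean in the Th gate. Each runs 5′ to 3′ over 300 bases around the gene start. Capitals mark matches on either strand to GGGCGG, to CCAAT, and to TATAAA or TATATA.
Atp1b1, chr1:164458306-164458605, minus strand: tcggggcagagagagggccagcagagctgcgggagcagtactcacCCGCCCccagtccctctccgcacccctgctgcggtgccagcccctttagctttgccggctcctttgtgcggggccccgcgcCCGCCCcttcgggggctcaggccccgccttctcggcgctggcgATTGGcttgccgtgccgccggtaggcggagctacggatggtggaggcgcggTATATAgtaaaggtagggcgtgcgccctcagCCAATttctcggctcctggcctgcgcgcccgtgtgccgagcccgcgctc
Atp1b3, chr9:96364382-96364681, minus strand: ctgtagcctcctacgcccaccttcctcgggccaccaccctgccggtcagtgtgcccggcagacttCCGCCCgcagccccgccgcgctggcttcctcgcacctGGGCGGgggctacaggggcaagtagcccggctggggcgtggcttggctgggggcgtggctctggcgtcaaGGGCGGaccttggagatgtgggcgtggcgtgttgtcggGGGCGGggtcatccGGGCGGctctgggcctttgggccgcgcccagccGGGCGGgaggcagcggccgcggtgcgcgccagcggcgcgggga
Fxyd6, chr9:45369935-45370234, plus strand: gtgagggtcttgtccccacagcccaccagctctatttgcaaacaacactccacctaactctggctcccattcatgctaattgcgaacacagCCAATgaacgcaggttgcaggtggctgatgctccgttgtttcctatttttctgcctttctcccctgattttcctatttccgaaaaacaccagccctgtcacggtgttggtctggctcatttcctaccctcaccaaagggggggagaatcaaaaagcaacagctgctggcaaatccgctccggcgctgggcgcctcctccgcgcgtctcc

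The Atp1b1 window held 2 matches to GGGCGG, 2 to CCAAT and 1 to TATATA, in 71% G and C with 31 CpG pairs. The Atp1b3 window held 6 matches to GGGCGG and none to the other motifs, in 76% G and C with 34 CpG pairs. A second RefSeq entry for Atp1b3 (chr9:96363666-96363965, minus strand, sequence not shown) held no match to any of the motifs, in 74.7% G and C with 39 CpG pairs. The Fxyd6 window held 1 match to CCAAT, in 54.3% G and C with 12 CpG pairs. Among 32851 RefSeq promoters of the same length, 35.7% held GGGCGG, 37.4% held CCAAT, and 17.1% held TATAAA or TATATA. The matches describe letters and say nothing of binding. Atp1b2, Fxyd2 and Fxyd7 had no entry in the set used and are named only.

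Atp1b1 encodes the beta subunit that is most widespread among neurons. The gene lies at 1:164437109-164458355 on the minus strand (mm10, GENCODE vM21), and exons of Nme7 on the opposite strand overlap it. Nme7 itself averaged only 7.44 to 18.6 CPM over the gates, with 43.5 CPM in its highest mouse. In the Nefh gate, Atp1b1 was at 1672 CPM in Control, 1534 in Control2 and 1422 in Control6, or 1543 ± 125.5 CPM (SD, n = 3), against 659 ± 78.9 CPM in the other gated cells of these mice. In the Sst/Nppb gate it was at 1098 CPM (Blue), 1336 (Red), 1128 (Control), 548 (Control1) and 1030 (Control2). In the Mrgprd gate its 6 mice lay between 816 and 1159 CPM (946 ± 125.01), and in the Th gate Blue had 729 and Red 606 CPM. The level was thus highest in the Nefh gate, whose mice did not overlap those of any other gate. Sst/Nppb and Mrgprd mice overlapped, and both Th mice lay below all Mrgprd mice. Nearly every cell of these 4 gates held a count: 25 of 26 Nefh cells, 46 of 46 Sst/Nppb cells, 98.2% of Mrgprd cells and 39 of 39 Th cells.

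Atp1b1 was low in the Mrgpra3 gate and mixed in the Calca+Tac1 gate. Mrgpra3 cells had 84.6 CPM in Blue, 66.8 in Red and 354 in Control2, a mean of 169 ± 161 CPM (n = 3) against 769 ± 63.2 CPM in the other gated cells. The gate was lower in all 3 mice, by a mean of -2.55 on the log2(CPM + 5) scale (SD 1.15), and Control2 stood nearer to its other cells than Blue and Red did. One of the 3 cells of Control2 also met the Sst/Nppb gate and had 989 CPM. Only 21 of 47 Mrgpra3 cells held a count of Atp1b1 (44.7%, exact Clopper-Pearson 95% interval 30.2 to 59.9). Calca+Tac1 cells had 335 CPM (Blue), 251 (Red), 1129 (Control), 210.1 (Control1), 313 (Control2) and 45.9 (Control6). The gate was lower than the other gated cells in 5 of 6 mice, all but Control (mean -1.69, SD 1.33), and 51 of 86 cells held a count (59.3%, interval 48.2 to 69.8). Shares were also taken with cells thinned to 10000 counts, leaving out the shallower cells (6 Mrgprd, 1 Mrgpra3, 5 Sst/Nppb, 0 Th, 5 Calca+Tac1 and 3 Nefh cells). Atp1b1 was then seen in 34.8% of Mrgpra3 cells and 56.8% of Calca+Tac1 cells, against 98.1% of Mrgprd cells and 100% of Sst/Nppb, Th and Nefh cells.

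Atp1b3 encodes the third beta isoform (9:96332655-96364442, minus strand). It was detected in all gates at levels that varied less among mice than those of Atp1b1. Its level was highest in the Th gate, at 1375 CPM in Blue and 1300.1 in Red, against a mean of 733 ± 18.5 CPM in their other gated cells. In the Mrgprd gate it was at 1025 CPM (Blue), 1009 (Red), 1019 (Control), 1061 (Control1), 791 (Control2) and 906 (Control6). All 6 mice were higher in the Mrgprd gate than in their other cells, by a mean of 0.67 on the log2 scale (SD 0.33). The Calca+Tac1 gate followed with mice between 600 and 747 CPM, and the Mrgpra3 gate with mice between 484 and 611 CPM. Levels were lowest in the Nefh gate (416, 423 and 476 CPM in Control, Control2 and Control6) and in the Sst/Nppb gate, where the 5 mice lay between 316 and 512 CPM. Both of these gates were below the other gated cells in every mouse, by a mean of -0.87 (SD 0.18, n = 3) for Nefh and -1.04 (SD 0.38, n = 5) for Sst/Nppb. In the order Th, Mrgprd, Calca+Tac1, Mrgpra3, Nefh, Sst/Nppb, mouse ranges of neighbours overlapped between Calca+Tac1 and Mrgpra3 and between Nefh and Sst/Nppb, and at no other step.

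The balance of the beta genes therefore shifted between gates. The ratio of Atp1b1 to Atp1b3 CPM was 3.54 ± 0.521 in the Nefh gate (n = 3, range 2.99 to 4.02) and 2.61 ± 0.717 in the Sst/Nppb gate (n = 5). It was 0.977 ± 0.070 in the Mrgprd gate (n = 6), and 0.530 and 0.466 in the Blue and Red cells of the Th gate. In the Mrgpra3 gate it was 0.139 in Blue, 0.118 in Red and 0.732 in Control2. In the Calca+Tac1 gate it ran from 0.0765 to 0.473 in 5 mice and was 1.75 in Control. Read counts of different genes depend on transcript length and capture, so the ratio is of use only as its change between gates. The itch-related gates did not overlap in it, with 1.73 in the lowest Sst/Nppb mouse and 0.732 in the highest Mrgpra3 mouse. Over all Mrgprd cells, the log2 levels of Atp1b1 and Atp1b3 went together (Pearson r = 0.60), and over the 86 Calca+Tac1 cells they did not (r = -0.12). Correlations across cells are descriptions: cells share a mouse, a library preparation and their depth.

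Atp1b2 encodes the beta subunit first known as an adhesion molecule on glia (11:69599736-69605942, minus strand). In the Nefh gate it was at 58.9 CPM in Control, 39.1 in Control2 and 14.4 in Control6, with a count in 18 of 26 cells. Calca+Tac1 cells followed, with 6 mice between 0 and 51.4 CPM (22.1 ± 17.2) and a count in 22 of 86 cells. In the Mrgprd gate the mice lay between 2.75 and 15.9 CPM, and in the Mrgpra3, Sst/Nppb and Th gates a count was found in 7 of 47, 2 of 46 and 2 of 39 cells. The mouse ranges of all neighbouring gates overlapped. Of the gates with the most Atp1b2, Nefh and Calca+Tac1, Nefh had the highest median glial sum (3259 CPM). The Th gate, next in that median (426 CPM), had the lowest mean of Atp1b2 (1.09 CPM). In Th cells the satellite glial genes had a median sum of 0 CPM and the Schwann cell genes of 274 CPM. The satellite glial median was also 0 CPM in Mrgpra3 and Sst/Nppb, and 4.05 CPM in Mrgprd. By mean, the satellite glial sum in Th (721 CPM) was above Mrgprd (351 CPM), Mrgpra3 (597 CPM) and Sst/Nppb (277 CPM). It was below Calca+Tac1 (1109 CPM) and Nefh (3527 CPM). The relation of these sums to Atp1b2 between gates was not tested. The split by glial RNA is given further on.

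**Figure D1:**
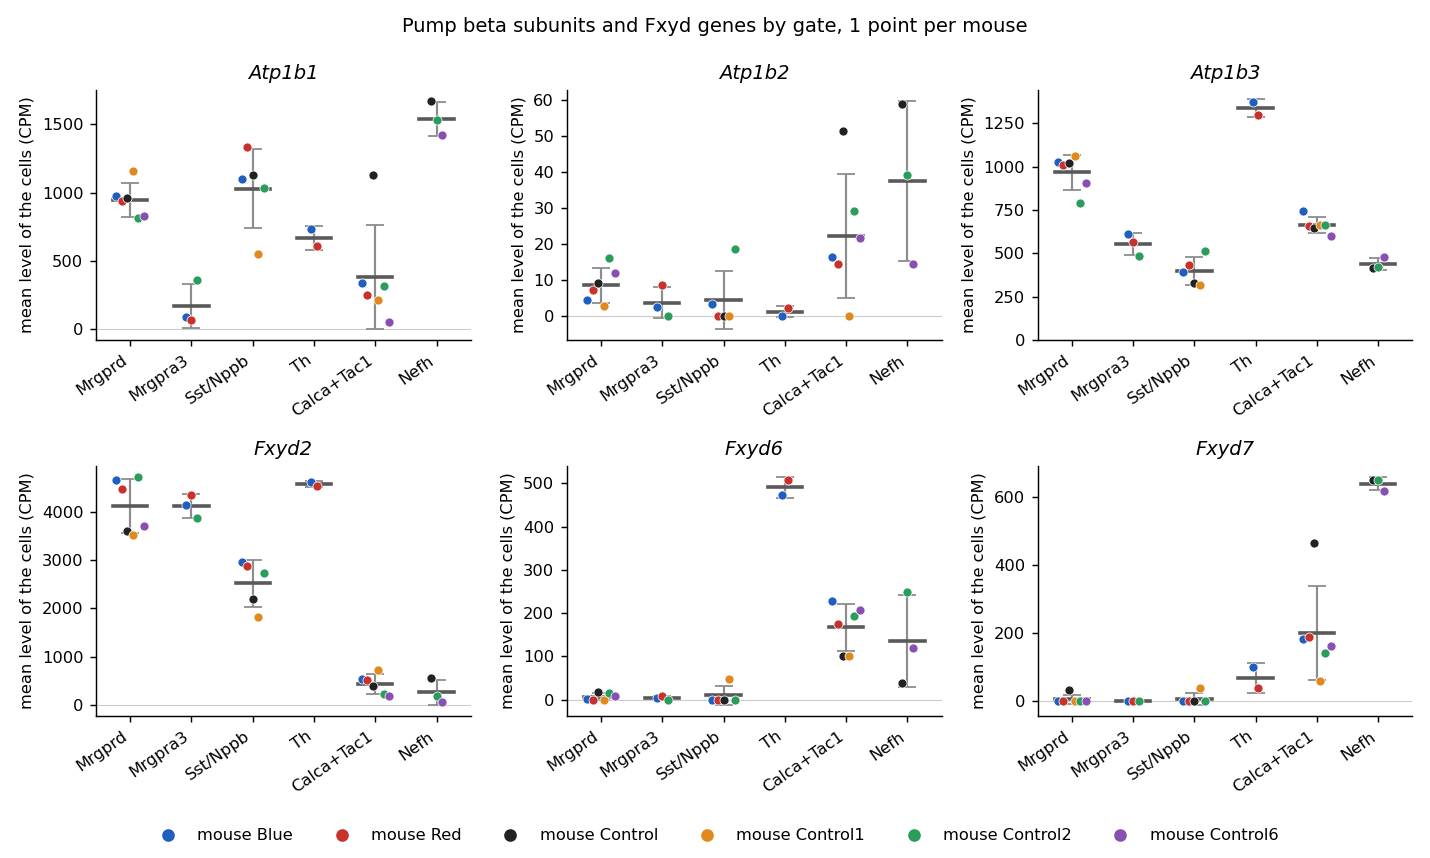
Mean CPM of the 6 genes per mouse in each gate. Each point is 1 mouse with at least 3 cells in the gate, and bars are the mean ± SD over mice. Atp1b1 is highest in the Nefh gate (1422 to 1672 CPM), Atp1b3 and Fxyd6 in the Th gate, and Fxyd7 in the Nefh gate (617 to 651 CPM), while Fxyd2 is low in the Calca+Tac1 and Nefh gates.

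Fxyd2 encodes the gamma subunit of the pump, first known from kidney, where it lowers the pump's affinity for sodium. The gene lies at 9:45399669-45410278 on the plus strand, 3509 bases after the end of Fxyd6. It was abundant in 4 gates and far lower in the Calca+Tac1 and Nefh gates. Th cells had 4611 CPM in Blue and 4527 in Red. Mrgpra3 cells had 4146 CPM in Blue, 4340 in Red and 3861 in Control2. Mrgprd cells had 4653 CPM (Blue), 4463 (Red), 3591 (Control), 3521 (Control1), 4714 (Control2) and 3710.3 (Control6). These 3 gates were above the other gated cells in every mouse. Sst/Nppb cells had 2953, 2881, 2205, 1831 and 2740 CPM in Blue, Red, Control, Control1 and Control2, below the lowest Mrgprd mouse and close to the other gated cells of the same mice (mean 2885 CPM, difference -0.20, SD 0.30).

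In the Calca+Tac1 gate Fxyd2 was at 553 CPM (Blue), 530 (Red), 394 (Control), 738 (Control1), 228 (Control2) and 193 (Control6). Their mean of 439 ± 209 CPM stood against 3451 ± 722 CPM in the other gated cells, a difference of -3.08 on the log2 scale (SD 0.79) with 6 of 6 mice lower. In the Nefh gate it was at 567 CPM in Control, 184 in Control2 and 71.4 in Control6, against a mean of 3250 ± 258 CPM in the other gated cells. The Calca+Tac1 and Nefh mice overlapped each other and lay below every mouse of the other 4 gates. A count was found in 80 of 86 Calca+Tac1 cells and 23 of 26 Nefh cells, and, thinned to 10000 counts as above, in 87.7% and 60.9% of them. Low counts in these cells cannot be told apart from free RNA.

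Fxyd6, known as phosphohippolin in brain, encodes a regulator of the pump and lies beside Fxyd2 (9:45370185-45396159, plus strand). Its pattern differed from that of its neighbour. Th cells had 474 CPM in Blue and 508 in Red, against a mean of 64.8 ± 8.29 CPM in their other gated cells, and every one of the 39 Th cells held a count. Calca+Tac1 cells had 229 CPM (Blue), 174 (Red), 101.5 (Control), 100.1 (Control1), 193 (Control2) and 207 (Control6), above the other gated cells in all 6 mice (mean 63.8 CPM, difference 1.42, SD 0.36). A count was found in 60 of these 86 cells (69.8%). Nefh cells were uneven, with 37.5 CPM in Control, 250 in Control2 and 120 in Control6. The excess of 0.71 over the other cells in this gate was -0.56 when only cells that meet exactly 1 gate were used, where only Control kept 3 cells or more. A Nefh cell of Control2 that also met the Th gate had 749 CPM. Only the Th mice did not overlap those of the next gate in the order Th, Calca+Tac1, Nefh, Sst/Nppb, Mrgprd, Mrgpra3.

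Fxyd6 was at or near 0 in the other gates. Only 5 Mrgprd cells (4.42%) held a count, with mice between 0 and 16.8 CPM. Mrgpra3 cells held one in 6 of 47 cells, with 3.08, 9.07 and 0 CPM in Blue, Red and Control2. In the Sst/Nppb gate it was seen in 1 of 46 cells, a cell of Control1. With cells thinned to 10000 counts, and the shallower cells left out as above, the share was 100% in Th, 56.8% in Calca+Tac1, 39.1% in Nefh, 8.70% in Mrgpra3, 2.44% in Sst/Nppb and 0.935% in Mrgprd cells.

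Fxyd7 encodes a regulator that is known from brain, where it lowers the potassium affinity of some pump isozymes. It lies at 7:31042513-31051467 on the minus strand, 31 bases from Fxyd5 and 210 bases from Fxyd1. It was highest in the Nefh gate, at 650 CPM in Control, 651 in Control2 and 617 in Control6. The mean of 639 ± 19.3 CPM stood against 28 ± 6.43 CPM in the other gated cells, a difference of 4.31 (SD 0.25), and 23 of 26 cells held a count (88.5%). In the 13 Nefh cells of Control that met no other gate it was at 728 CPM. Over the mice of the same gate its close neighbours Fxyd5 and Fxyd1 averaged 26.05 and 53.4 CPM. Calca+Tac1 cells came next, with 183 CPM (Blue), 188 (Red), 465 (Control), 59.2 (Control1), 142 (Control2) and 162 (Control6). All 6 mice were above their other gated cells, by a mean of 1.76 (SD 1.37), and 56 of 86 cells held a count (65.1%).

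The remaining gates held little Fxyd7. Th cells had 100.2 CPM in Blue and 38.8 in Red, from 6 of 39 cells. The Th cells that also met the Nefh gate, 1 each in Blue and Red, had 793 and 530 CPM, and cells that met the Th gate alone had 54.4 CPM in Blue and 0 in Red. In the Mrgprd gate 5 cells (4.42%) held a count. In the Sst/Nppb gate it was 1 of 46 cells. In the Mrgpra3 gate it was 0 of 47 cells, which allows a share of up to 6.38% of cells with a count, against a mean of 100.5 ± 32.8 CPM in the other gated cells. Cells that met both the Th and Nefh gates, 3 in all, were high in Fxyd7 and Atp1b1, with 793, 530 and 932 CPM of Fxyd7 and 2442, 2121 and 1910 CPM of Atp1b1 in Blue, Red and Control2. Their Fxyd2 was low, at 167, 123.7 and 76.4 CPM.

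Cells were also counted by which of the 3 Fxyd genes they held together. Fxyd2 was the only one of the 3 with a count in 92.9% of Mrgprd cells, 41 of 47 Mrgpra3 cells and 44 of 46 Sst/Nppb cells. In the Th gate no cell held Fxyd2 alone, and 33 of 39 cells held Fxyd2 with Fxyd6. In the Calca+Tac1 gate 41 of 86 cells (47.7%) held all 3 genes, 15 held Fxyd2 alone, 13 Fxyd2 with Fxyd6 and 11 Fxyd2 with Fxyd7. In the Nefh gate 13 of 26 cells held all 3, and 8 held Fxyd2 with Fxyd7. Shares as low as those of the lowest gates, such as 1 of 46 cells, cannot be told apart from free RNA.

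**Figure D2:**
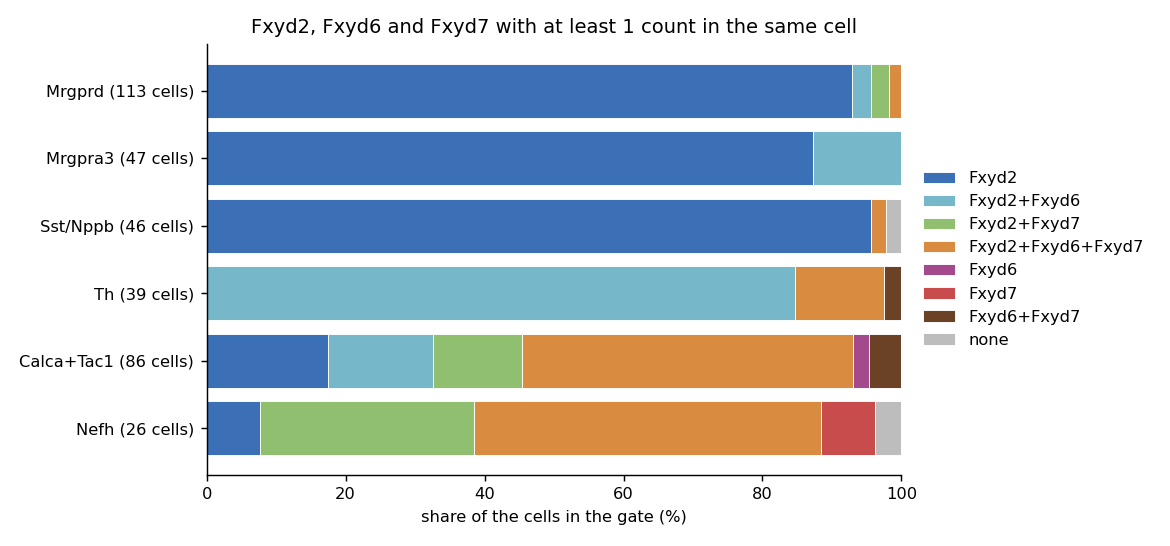
Share of cells in each gate (percent) by which of Fxyd2, Fxyd6 and Fxyd7 had at least 1 count. Fxyd2 alone fills most of the Mrgprd, Mrgpra3 and Sst/Nppb bars, Fxyd2 with Fxyd6 most of the Th bar, and all 3 genes the largest part of the Calca+Tac1 (47.7%) and Nefh bars.

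Among Calca+Tac1 cells, Atp1b1 rose with Fxyd2 and fell with Fxyd6 and Fxyd7. Over the 86 cells, the log2 level of Atp1b1 had a Pearson r of -0.60 with Fxyd6, -0.48 with Fxyd7 and 0.53 with Fxyd2, and Fxyd6 and Fxyd7 had an r of 0.44. Fxyd2 itself was more weakly related to the other 2 Fxyd genes, with an r of -0.28 with Fxyd6 and -0.25 with Fxyd7. The 51 cells with a count of Atp1b1 had a median of 36.4 CPM of Fxyd6, 0 of Fxyd7 and 579 of Fxyd2. The 35 cells without one had medians of 246 CPM of Fxyd6, 287 of Fxyd7 and 150 of Fxyd2. Median depth was 24640 counts in cells with and 15850 in cells without a count, and 22 of 51 against 10 of 35 cells were glia-rich; the part of depth and glial RNA in the pattern was not tested. This split was chosen after the values were seen.

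Both mice with many Calca+Tac1 cells showed the pattern. In Blue, 19 cells with a count of Atp1b1 had medians of 636 CPM of Fxyd2 and 0 of Fxyd6 and Fxyd7, and 14 cells without one had 187, 225 and 290.5 CPM of these genes. In Red, 22 cells with a count had 573, 18.2 and 37.4 CPM of Fxyd2, Fxyd6 and Fxyd7, and 16 cells without one had 177, 223 and 299 CPM. The other mice had 3 or 4 cells each. Higher Atp1b1 thus went with lower Fxyd6 and Fxyd7 within the gate, whereas Nefh cells were high in both Atp1b1 and Fxyd7.

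**Figure D3:**
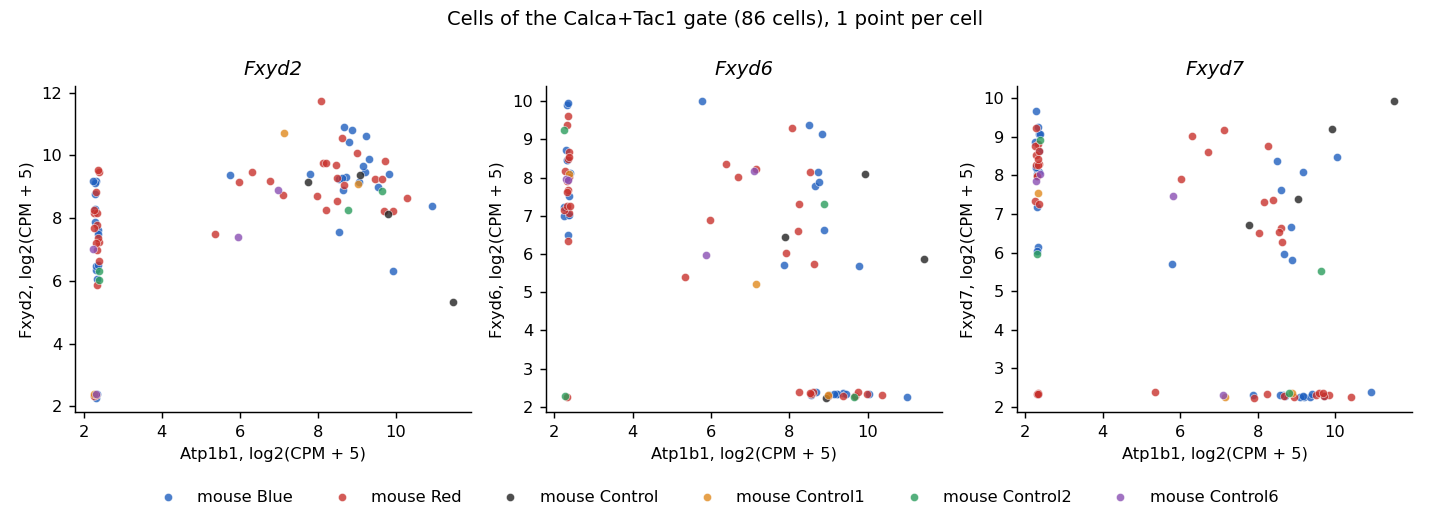
Atp1b1 against Fxyd2, Fxyd6 and Fxyd7 in the 86 Calca+Tac1 cells, both axes as log2(CPM + 5), 1 point per cell with a slight shift so that points at 0 do not cover each other. Cells with Atp1b1 tend to have more Fxyd2 (r = 0.53) and less Fxyd6 (r = -0.60) and Fxyd7 (r = -0.48).

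Cells near a gate's edge were compared as a description, using cells inside but below 2 times the threshold and cells outside but above 0.5 times the threshold. At the Nefh edge, the 12 cells just inside had a median of 647 CPM of Fxyd7 (mean 629 CPM). The 26 just outside had a median of 0 CPM (mean 67.8 CPM). Atp1b1 had medians of 1447 CPM inside and 732 CPM outside, and Fxyd2 111.95 CPM inside and 806 CPM outside. Of those 26 outer cells, 21 belonged to another gate, and so did 7 of the 12 inner cells. The edge and membership of other gates cannot be told apart here. At the Th edge, the 4 cells inside had medians of 369 CPM of Fxyd6 and 1314 CPM of Atp1b3, and the 8 outside had 164 and 697 CPM. At the Calca+Tac1 edge, Fxyd2 had a median of 301 CPM in the 11 cells inside and 1047 CPM in the 5 outside. The Mrgprd edge had 10 cells inside and 1 outside, and the Mrgpra3 and Sst/Nppb edges had at most 1 cell on a side.

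Other genes were tested by limma on log2(CPM + 5), gate against the other gated cells within mice, with Benjamini-Hochberg adjustment over all genes tested and calls at an adjusted p under 0.05. Results are given for 24 such genes: 9 relatives and partners of the members, namely Atp1b4, the other Fxyd genes and the Nkain genes, whose proteins bind the beta subunit, and 15 sodium-coupled carriers and calcium pumps, which use or share the burden of ion gradients.

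Of the relatives and partners, Nkain1 was higher in the Mrgprd gate (62.8 CPM, a count in 80.5% of cells, log2 difference 2.27, SE 0.22, adjusted p = 2.11e-06) and was called lower in the Sst/Nppb, Th and Calca+Tac1 gates. In the Mrgpra3 gate it was also called lower (-2.81, SE 0.38, limma adjusted p = 0.0205), and this call was lost under 3 of 17 alternatives. There it was at 0 in all 47 cells, which allows up to 6.38% of cells with a count. The call in the Calca+Tac1 gate (adjusted p = 0.0373) was lost under 12 of 21 alternatives. Fxyd1 and Fxyd5, the neighbours of Fxyd7, did not pass the test in any gate in which they were tested.

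Among the carriers and calcium pumps, Atp2b2, a calcium pump of the plasma membrane, was seen in 38 of 39 Th cells (262 CPM, log2 difference 5.31, SE 0.24, adjusted p = 2.93e-13). It was called lower in the Mrgprd, Mrgpra3, Sst/Nppb and Calca+Tac1 gates, and none of 46 Sst/Nppb cells held a count. The call in the Calca+Tac1 gate was lost under 3 of 21 alternatives. Atp2b4, of the same family, was higher in the Calca+Tac1 gate (452 CPM, 2.14, SE 0.32, adjusted p = 0.000485). It was also called higher in the Nefh gate (1.03, SE 0.28, limma adjusted p = 0.0215), a call lost under 5 of 14 alternatives. Atp2b4 was called lower in the Th, Mrgprd and Sst/Nppb gates, and the Sst/Nppb call was lost under 14 of 21 alternatives. In the Mrgpra3 gate it was lower (4.70 CPM, -4.65, SE 0.32, adjusted p = 0.00284). The sodium-calcium exchanger Slc8a1 was higher in the Sst/Nppb gate (69.9 CPM, 2.30, SE 0.54, adjusted p = 0.0123). It was lower in the Mrgprd gate (0.208 CPM, -2.74, SE 0.28, adjusted p = 2.46e-06) and in the Calca+Tac1 gate (1.94 CPM, -2.04, SE 0.37, adjusted p = 0.00208). The Slc8a1 call was lost under 4 of 20 alternatives in the Sst/Nppb gate and under 3 of 21 in the Calca+Tac1 gate. Slc12a2, which loads sensory neurons with chloride, was lower in the Calca+Tac1 gate (-1.41, SE 0.29, adjusted p = 0.00469) and slightly higher in the Mrgprd gate (0.44, SE 0.12, adjusted p = 0.012). The Slc12a2 call in the Mrgprd gate was lost without Blue (limma adjusted p = 0.0601) and in runs 2 to 4 (0.173).

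Counts over these genes are read against all genes. In the Mrgprd gate 3 of 13 tested genes were higher and 6 lower, beside 10.2% higher and 12.9% lower of all 9079 genes. In the Mrgpra3 gate 0 of 12 were higher and 5 lower, beside 1.41% and 2.04%. These counts depend on Control2, which had 3 cells: without it, 949 genes were higher and 1292 lower of all 8925, and of the carriers and calcium pumps 3 of 9 were higher and 4 lower. In the Sst/Nppb gate 2 of 12 were higher and 3 lower, beside 3.47% and 8.88%. The log2 medians over the genes were -0.63 in Mrgprd, -0.55 in Mrgpra3 and -0.06 in Sst/Nppb, against -0.04, -0.07 and -0.21 over all genes. In the Th gate 4 of 11 were higher and 3 lower, beside 14.3% and 14.1%. In the Calca+Tac1 gate 2 of 14 were higher and 5 lower, beside 5.44% and 6.85%. In the Nefh gate 2 of 15 were higher and 0 lower, beside 4.55% and 4.77%. Here the medians were 0.60 in Th, 0.21 in Calca+Tac1 and 0.43 in Nefh, against 0.02, -0.08 and -0.05 over all genes. With all mice, the share called was above the background in both directions, except for higher calls in Mrgpra3 and lower calls in Nefh. Both gene lists were written with earlier results of these data known, so these shares are a description and not an independent result. With 2 mice in the Th gate, its errors rest largely on the spread shared across genes.

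**Figure D4:**
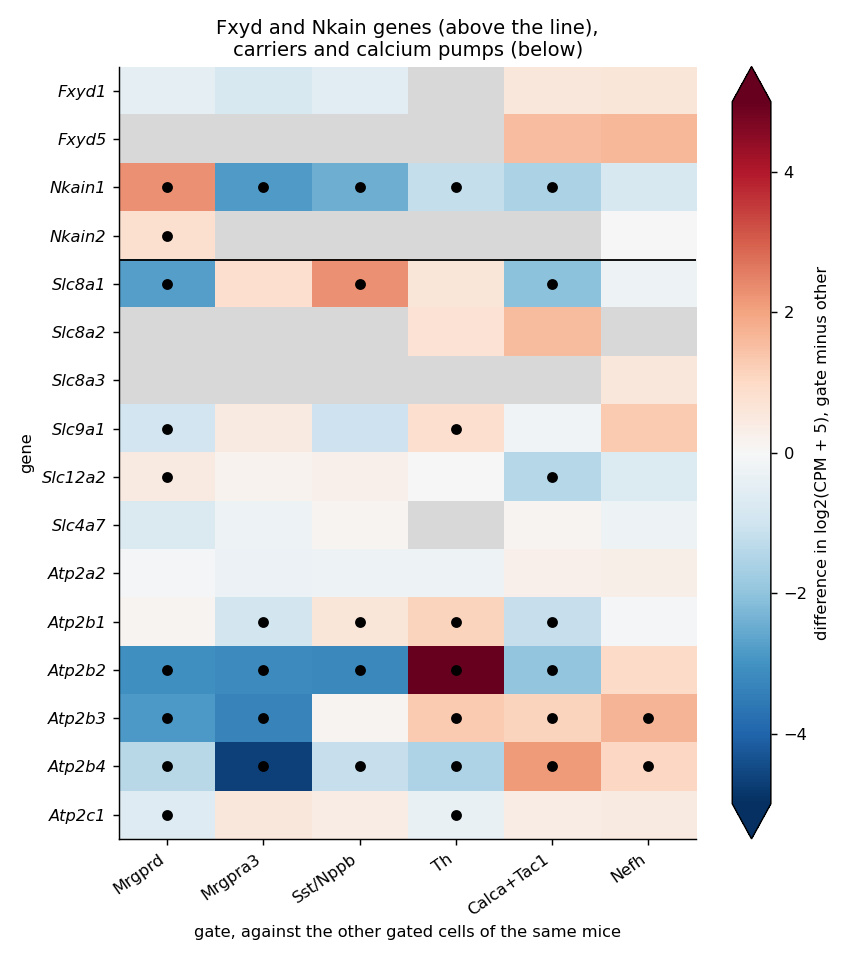
Log2 difference (gate minus the other gated cells, mean over mice) of the Fxyd and Nkain genes, carriers and calcium pumps, with gates as columns and genes as rows. Dots mark an adjusted p under 0.05 by limma and grey cells were not tested. Atp2b2 in the Th gate (5.31) is the largest difference drawn, and Nkain1 is higher in the Mrgprd gate (2.27).

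The split by glial RNA asked which of the 6 genes moved with it inside a gate. Glia-rich cells were set against glia-poor cells of the same mouse and gate in 4 mice (Blue, Red, Control and Control2) and 8 pairs of mouse and gate. Over all 9071 genes tested, 43 were called in either direction (0.474%), all of them higher in glia-rich cells. Atp1b2 was at 21.99 CPM in glia-rich and 1.2 in glia-poor cells of Blue, at 28.7 and 0.0967 CPM in Red, at 23.1 and 0 CPM in Control and at 28.7 and 0 CPM in Control2. It was higher in glia-rich cells in 4 of 4 mice, with no overlap between the sides (log2 difference 2.27, SE 0.38, limma adjusted p = 0.0353). The call was lost under 8 of 11 alternatives. It was lost without any 1 of the 4 mice (limma adjusted p 0.0668 to 0.248) and with glia-rich cells defined at 1000 CPM (0.456). It was also lost in cells of exactly 1 gate (0.221), at 5 cells per side (0.104) and with a pseudocount of 1 (0.0749).

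Fxyd1, phospholemman, a relative of the 3 Fxyd members, went the same way. It was at 37.6 CPM in glia-rich and 1.92 in glia-poor cells of Blue, at 41.6 and 1.67 CPM in Red, at 80.5 and 0 CPM in Control and at 52.8 and 0 CPM in Control2. The log2 difference was 3.11 (SE 0.39, limma adjusted p = 0.00596), and the call was lost at 1000 CPM (adjusted p = 0.213) and without Control (adjusted p = 0.0656). Of the 14 genes tested beside the members, Fxyd1 was the only one called, and the median log2 difference over them was 0.17, against -0.01 over all genes. Atp1b2 and Fxyd1 were thus higher in glia-rich cells within gates.

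The other members did not pass this test. Fxyd2 had a log2 difference of 0.00 (SE 0.16), Atp1b1 of 0.27 (SE 0.16) and Atp1b3 of -0.19 (SE 0.13), with adjusted p of 0.998, 0.917 and 0.917. Fxyd6 had a difference of 1.64 (SE 0.46, adjusted p = 0.458) and Fxyd7 of 1.26 (SE 0.59, adjusted p = 0.917). Without Red, Fxyd6 passed (2.22, adjusted p = 0.0195). In Mrgprd cells, Fxyd6 was at 43.1 CPM in glia-rich and 0 in glia-poor cells of Control, and at 25.3 and 0 CPM in Control2. The Fxyd6 of Control came only from 3 glia-rich cells that also met the Nefh gate. The 15 Control cells that met the Mrgprd gate alone were at 0 CPM, so glial RNA and gate overlap cannot be told apart in this mouse. The result without Red includes the 3 cells that met both gates. Averaged over gates, Fxyd6 in Blue was at 476 CPM in glia-rich and 282 CPM in glia-poor cells, and in Red at 161 and 185 CPM. A part of glial RNA in the Nefh levels of Fxyd7 could not be set apart by this split, since only 4 of 26 Nefh cells were glia-poor.

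**Figure D5:**
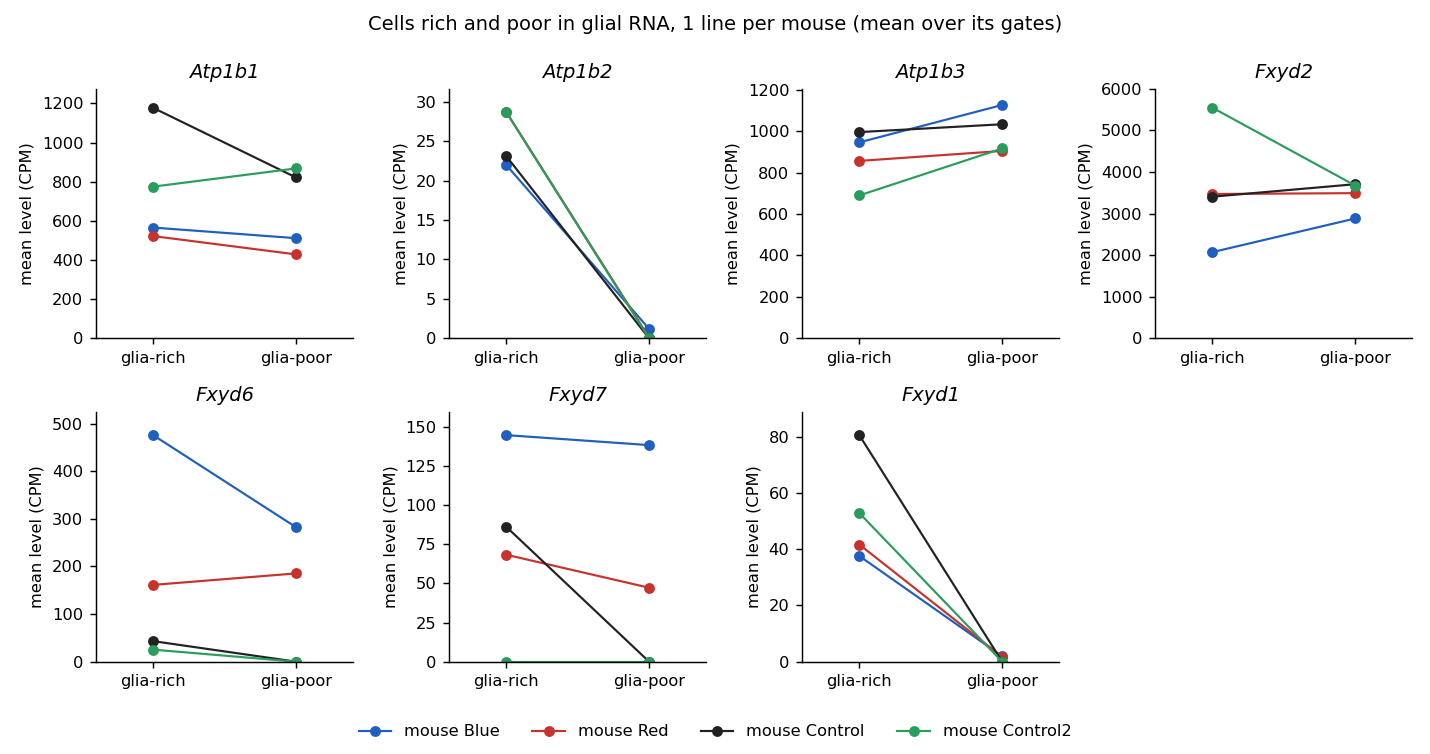
CPM of the 6 genes and Fxyd1 in glia-rich (left) and glia-poor (right) cells of the same mouse and gate, averaged per mouse, with 1 line for each of 4 mice. Atp1b2 and Fxyd1 are higher on the glia-rich side in all 4 mice, and Fxyd2, Atp1b1 and Atp1b3 show no difference that passed the test.

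The genes most like each member were taken over 25 points of gate and mouse, by the Pearson r of log2(CPM + 5) among 7174 genes. Fxyd7 was most like Syt2 (r = 0.97), Ache (0.96) and Prkcb (0.96), and Fxyd2 most like Acpp (0.97), Tmem45b (0.94) and Wipf3 (0.94). Fxyd6 was most like Nrip3 (0.94) and Snn (0.93). Atp1b3 was most like Nipal3 (0.89), Lrrc75b (0.87) and Isl1 (0.86), and Atp1b2 most like Adamts5 (0.84), Dbi (0.82) and Plpp3 (0.78). Atp1b1 had the weakest matches, Atp2b1 (0.68), Dpp6 (0.66) and Sestd1 (0.65). Points share mice and gates, and the likeness is a description.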

How the data were processed

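Single tdTomato+ DRG cells were sequenced with a digital RNA sequencing method, per the labels' protocols. STAR 2.7.3a and mm10 are named in the submitters' processing notes, and the counting settings are not given in the sources used here. The deposited unit is a signal: each count was multiplied by a factor of its cell that the sources used here do not give. The value of 1 count was taken as the most frequent value of a column. Up to 20.5 counts, 96.5% of values (median over columns) lay within 0.1 of a whole count, and 246 of 394 columns were taken as recovered whole reads. Depths and shares with a count rest on these recovered counts, rounded also in the other columns. Intervals and limits for 0 cover counting error only.

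The ribosomal RNA gene Rn45s (7.10% of the signal on average) and 26 rows named by dates (0.154%) were left out, and the rest was scaled to CPM per cell. The 23 cells with fewer than 500 genes held at most 383 counts. CPM was averaged over cells per mouse and gate. EdgeR had been planned for raw counts; as the unit is not counts, limma 3.58.1 (R 4.3.3) tested log2(CPM + 5) of genes averaging at least 10 CPM, blocking on mouse, with a trended prior, and edgeR 4.0.16 with TMM on summed recovered counts was an alternative. Differences on this scale understate those of low genes. The fit was tested on simulated data. The members, both gene lists, the gates and the tests were chosen with earlier results of these data known. Genes named are the members, the genes of both lists and, for each member, the 3 of highest r among genes averaging at least 20 CPM, without predicted, mitochondrial, ribosomal or haemoglobin genes; list genes that missed the filter or the test are given as counts, and results of 4 of the 28 list genes are not reported here. Cells were sorted singly, and doublets were not called. Gene positions are from GENCODE vM21 and promoters from RefSeq. The 6 labelled cells without a column were not analysed here. Alternatives changed the pseudocount, the filters, the gates, the glial limit, the cells and mice used, and the test.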

Additional observations from a re-analysis of the deposited data

Results flagged for a closer look

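In 18 groups of a member and a gate with 5 or 6 mice, 1 mouse was checked for standing far from the others, and 6 did. Chance flags about 1 in 20 groups of normally spread values, a rate that does not hold for groups with most mice at 0, such as Fxyd6 and Fxyd7 in the Sst/Nppb gate, where 1 mouse above 0 is marked by construction. In the Calca+Tac1 gate, the 4 cells of Control had 1129 CPM of Atp1b1, against 45.9 to 335 CPM in the other 5 mice, and 465 CPM of Fxyd7, against 59.2 to 188 CPM. One of these cells also met the Nefh gate and had 2870.0 CPM of Atp1b1 and 981 CPM of Fxyd7. Without it, the 3 remaining cells of Control had 549 CPM of Atp1b1 and 292 CPM of Fxyd7.

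In the Mrgprd gate, the 18 cells of Control had 33.6 CPM of Fxyd7, against 0 to 1.72 CPM in the other 5 mice. Of these cells, 3 also met the Nefh gate, were glia-rich and averaged 201 CPM, and the 15 others averaged 0 CPM. In the Sst/Nppb gate, the 4 cells of Control1 had 48.5 CPM of Fxyd6 and 38.8 CPM of Fxyd7, against 0 in the other 4 mice, and 1 cell held all of these counts. The 3 cells of Control2 in that gate had 18.5 CPM of Atp1b2, against 0 to 3.30 CPM in the other mice. The causes were not tested.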

How the results depend on the processing

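No paired analysis was possible because of the replicate numbers in the labels, which count cells within a mouse; this concerns those numbers alone, and every comparison was paired by mouse. Over 564 alternative values of the 36 member differences, 500 moved by less than the SD over mice and 57 by more. The differences that changed sign after holding in every mouse were Atp1b1 in the Th gate (-0.0488 with thresholds halved, -0.11 in cells of exactly 1 gate, -0.12 in cells with a glial sum under 500 CPM, against 0.08), Atp1b3 in the Calca+Tac1 gate (0.0505 with log2 values averaged over cells, against -0.23) and Fxyd6 in the Nefh gate (-0.31 with Rn45s kept, -0.29 with thresholds doubled, -0.56 in cells of exactly 1 gate, where only Control kept 3 cells, against 0.71). Atp2b4 in the Mrgprd gate went to 0.34 (adjusted p = 0.827) in cells with a glial sum under 500 CPM, against -1.38.

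Calls over all 28 list genes went to 5 at a mean of at least 50 CPM and 7 at a glial sum under 500 CPM in the Mrgprd gate (11 as tested), to 10 with edgeR, 3 at 50 CPM and 10 at a glial sum under 500 CPM in Mrgpra3 (6), and to 2 at 50 CPM and 2 in runs 2 to 4 in Sst/Nppb (6). They went to 5 with thresholds halved in Th (9), to 5 with thresholds doubled and 5 with no filter in Calca+Tac1 (9), and to 2 with thresholds halved, 1 with no filter and 2 with no mouse block in Nefh (4). Calls in the glia split, members included, went to 0 at 1000 CPM (3), and to between 1 and 3 with a mouse left out. A filter at 50 CPM tests fewer genes; the other causes were not tested. Leaving out a mouse gave 9 to 13 calls in Mrgprd, 5 to 9 in Mrgpra3 and 5 to 6 in Sst/Nppb. Of 933 alternative values of list genes and, in the glia split, members, 821 kept direction and side of the threshold. Over all genes, Mrgpra3 calls were 309, 1634 with edgeR and 2241 without Control2. No limma test could be had in the Nefh gate in cells of exactly 1 gate, with thresholds doubled, at a glial sum under 500 CPM, at 5 cells or in run 1, or in the Mrgpra3 and Th gates in runs 2 to 4.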

Other observations

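The 28 kept cells that met no gate were in no comparison. Their Fxyd2 had a lowest value of 0, a median of 3623 and a highest of 7068 CPM, with a count in 27 cells. Fxyd6 ran from 0 over a median of 199 to 1165 CPM, with a count in 20 cells, and Fxyd7 was seen in 4 cells, at up to 688 CPM. Atp1b1 ran from 0 over 599 to 1269.6 CPM (23 cells), Atp1b3 from 0 over 937 to 2423 CPM (25 cells), and Atp1b2 was seen in 7 cells, at up to 183 CPM. Cells with both Fxyd2 and Fxyd6 were thus common among the ungated cells.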
